A study of Mus musculus with 4 samples.

Results

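The genes of oxidative phosphorylation were compared between mouse T cells cultured under Tc9 cytokine conditions and mouse T cells cultured under Tc1 cytokine conditions. The set was defined by gene name: every gene of the array whose symbol starts with Nduf, Uqcr, Atp5 or one of Sdha to Sdhd, or is a Cox gene of families 4 to 8. The rule found 97 of the 19505 genes measured. They comprised 44 genes of complex I, 8 of complex II, 8 of complex III, 20 of complex IV and 17 of complex V, each read by a single probe set. Assembly factors and little-used isoforms that share these name stems are included.

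Total RNA was hybridised to 4 Affymetrix arrays, 2 from Tc9 cells and 2 from Tc1 cells, numbered 1 and 2 in each group. In the field, Tc9 names CD8 T cells that secrete IL-9, and Tc1 names cytotoxic CD8 T cells that secrete interferon gamma. The labels name the conditions but not the cytokines, the culture times, or the strain, age and genotype of the mice. Nothing in the labels says that replicates are separate cultures or animals, so p-values measure only the spread between these samples, which may be technical. The stated aim was to compare gene expression between Tc9 and Tc1 cells.

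Oxidative phosphorylation is carried out in the inner mitochondrial membrane. Complex I takes electrons from NADH and complex II takes them from succinate. Complex III passes them by way of cytochrome c to complex IV, which reduces oxygen, and complexes I, III and IV pump protons whose return through complex V, the ATP synthase, drives ATP synthesis. Nearly all subunits are encoded in the nucleus and a few in mitochondrial DNA. In CD8 T cells the pathway serves resting and memory cells as a main source of ATP, and activated cells run it beside a high rate of glycolysis.

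No member differed past the threshold between Tc9 and Tc1 cells. Quantile normalized intensities were put on a log2 scale after 16 was added, and all genes were tested together with limma, as Tc9 minus Tc1, at 0.05 on the Benjamini-Hochberg adjusted p. The count past that threshold was 0 of 97 members, against 0.564% of all genes. At an unadjusted p under 0.05 there were 2 members, Ndufaf3 higher and Ndufaf4 lower in Tc9. That is 2 of 97, against 5.28% of all genes (2.94% higher and 2.34% lower). The median log2 change of the members was 0.023 and that of all genes was -0.0027, and the members spanned -0.43 to 0.60, beside -3.83 to 5.32 over all genes. In the arrays numbered 1 the members' median was 0.015, and in those numbered 2 it was -0.0018. The 53 members with a higher and 44 with a lower mean in Tc9 were close to an even division. On both array numbers 33 members were higher in Tc9 and 31 lower, against 30.1% and 32.0% of all genes.

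For 94 of the 97 members the 95% interval of the log2 change from limma, taken gene by gene, lay between -1 and 1, that is, inside a 2-fold change either way, and the same held for 92.0% of all genes. The distance from the change to either end of its interval had a median of 0.39 over the members. The 3 members whose interval reached past 2-fold were Ndufaf3 (0.056 to 1.14), Ndufaf8 (-1.13 to 0.85) and Cox7a1 (-1.08 to 0.27).

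**Figure D1:**
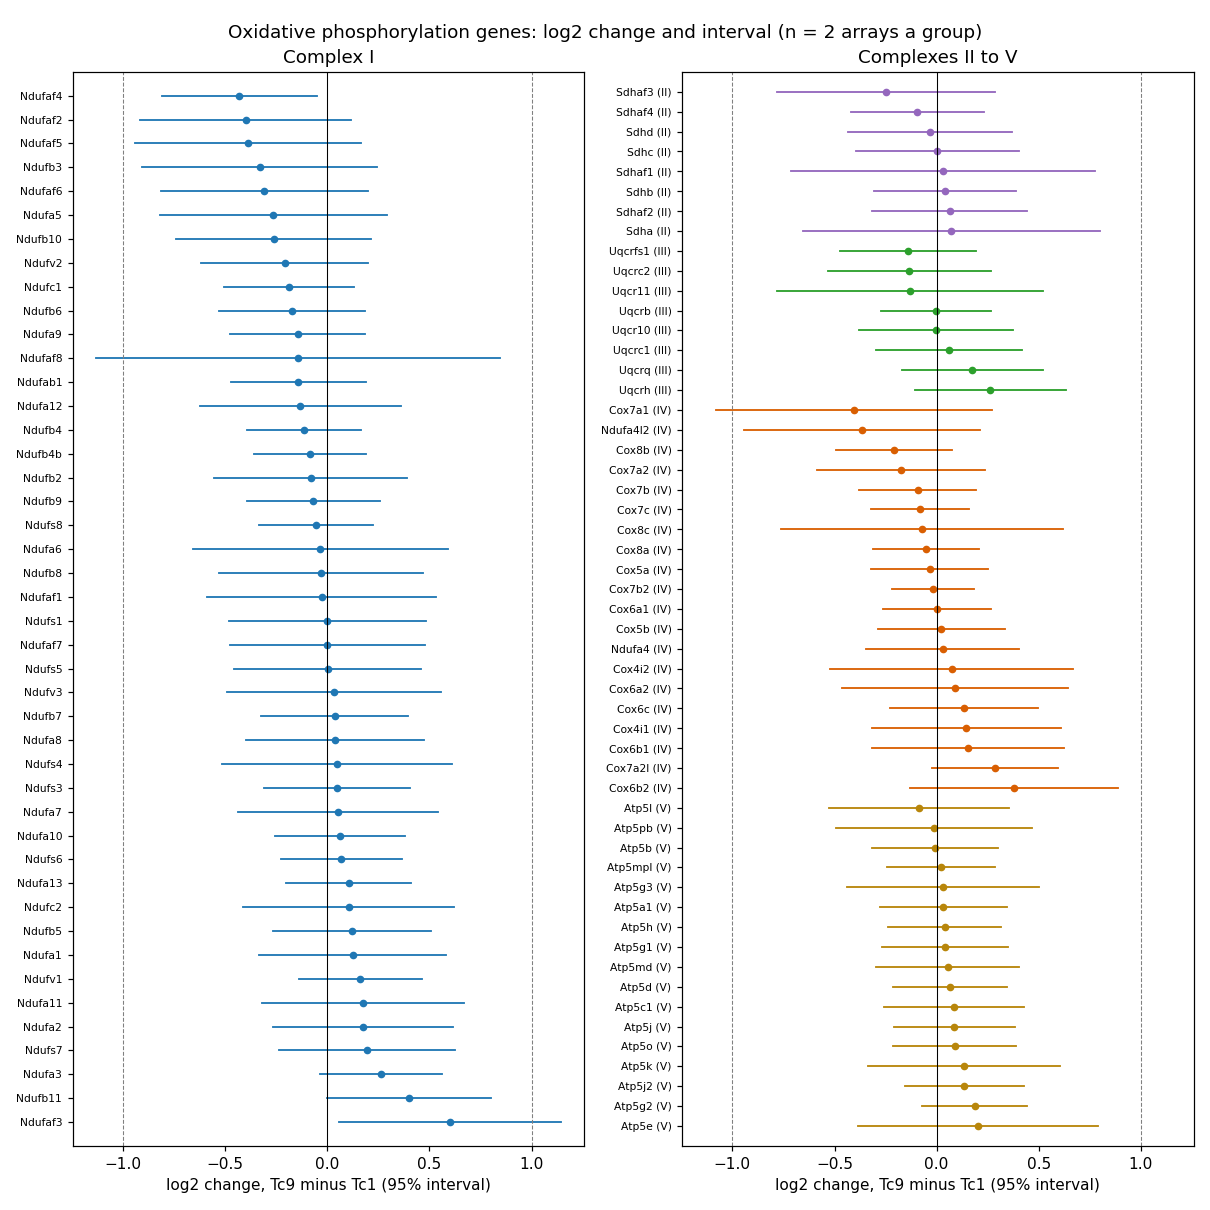
Log2 change, Tc9 minus Tc1 (points), with its 95% interval from limma (lines), for the 44 members of complex I (left) and the 53 members of complexes II to V (right, complex in brackets), each complex ordered by change. Dashed lines mark a 2-fold difference, and 94 of the 97 intervals lie between them.

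The arrays numbered 1 and 2 stood apart from each other. The median deposited intensity over all probe sets was 37.9 for Tc9 and 37.1 for Tc1 on the arrays numbered 1, and 57.1 for Tc9 and 57.3 for Tc1 on those numbered 2. After normalization the members' median absolute log2 difference was 0.14 between the Tc9 and Tc1 arrays numbered 1 and 0.098 between those numbered 2. Between arrays of the same cell type it was 0.24 for the 2 Tc9 arrays and 0.19 for the 2 Tc1 arrays. Each of these is a difference of single arrays. Sdha, the succinate-oxidising flavoprotein of complex II, shows the pattern in a strong form. It had 972 and 572 in Tc9 and 913 and 549 in Tc1, in the order of the array numbers. Its log2 difference, number 2 minus number 1, was -0.75 in Tc9 and -0.72 in Tc1, wider than the medians given above. Both arrays numbered 1 were high for Sdha, both numbered 2 were low, and the cell types overlapped. Of the members 55 were lower on the array numbered 2 in both cell types and 21 were higher there in both, and the corresponding counts over all genes were 7407 and 7109. Whether culture or array processing separated the numbers cannot be told apart.

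With the array number as a block in the same fit, 13 members passed, 8 higher and 5 lower in Tc9. Over all genes 13.7% passed that fit (6.34% higher and 7.37% lower), so 13 of 97 is near the share of all genes and no result about the members. The 95th percentile of the negative control probes of each array is called the background level here. Of the 7154 genes whose mean deposited intensity exceeded the mean background level, 29.7% passed the blocked fit. Of the 83 members among them 12 did, a lower share, and this difference was not tested. The blocked fit has 1 residual degree of freedom and gave genes of like intensity the same spread. Without that intensity trend it called 4 members, Ndufaf3 higher and Ndufaf4, Ndufaf5 and Cox7a1 lower, and 7.31% of all genes. Ndufaf3 and Ndufaf4 were called in both blocked fits.

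**Figure D2:**
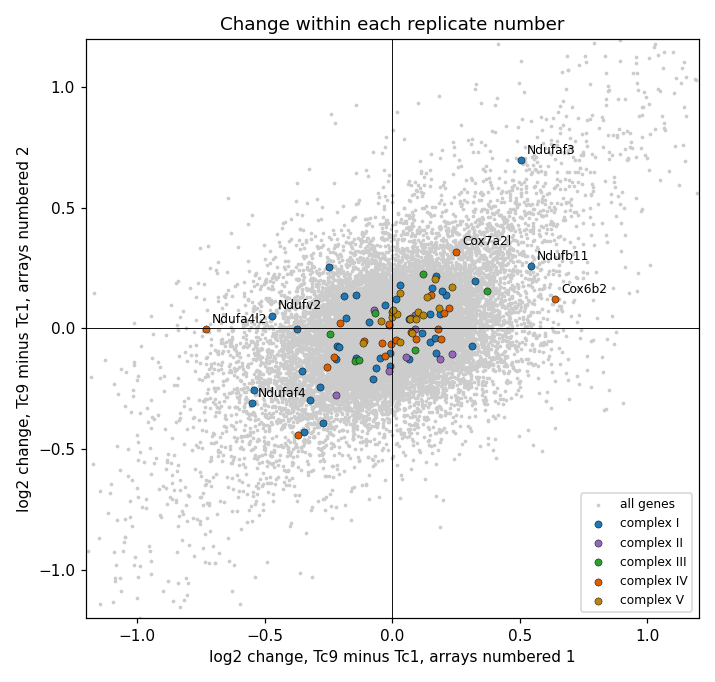
Log2 change, Tc9 minus Tc1, on the arrays numbered 1 (x axis) against those numbered 2 (y axis), with all genes in grey and members coloured by complex, axes limited to -1.2 to 1.2. The members lie among the points of other genes, with Ndufaf3 at 0.50 and 0.70 and Ndufaf4 at -0.55 and -0.31.

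In complex I the 6 measured core subunits, proteins of the part of the complex that passes electrons from NADH to ubiquinone, had log2 changes from -0.21 to 0.19. Ndufv1, which binds NADH and flavin, had 1714 and 1591 in Tc9 and 1538 and 1413 in Tc1. Its groups did not overlap, yet the log2 change of 0.16 ± 0.13 (SE; 0.16 and 0.17 within the numbers) did not pass limma (adjusted p = 1.00). Its neighbour in the NADH-oxidising module, Ndufv2, had 721 and 957 in Tc9 and 1007 and 922 in Tc1, with a change of -0.47 on the arrays numbered 1 and 0.053 on those numbered 2. The other core subunits Ndufs1, Ndufs3, Ndufs7 and Ndufs8 had log2 changes of -0.00034, 0.048, 0.19 and -0.056. Ndufs7 had 1548 and 1227 in Tc9 and 1371 and 1053 in Tc1, higher in Tc9 within each number but overlapping between the groups. It and Ndufv2 passed with the block (adjusted p = 0.0328 and 0.0482). Neither passed with the block and no intensity trend (limma adjusted p = 0.326 and 0.438).

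Among the 29 accessory subunits of complex I, which surround the core and are needed for its assembly or stability, 16 had a higher and 13 a lower mean in Tc9, with a median log2 change of 0.034. Ndufb11, a subunit of the membrane arm, had 564 and 464 in Tc9 and 382 and 386 in Tc1. Both Tc9 arrays were above both Tc1 arrays, and the log2 change was 0.40 ± 0.17 (SE; 0.54 and 0.26 within the numbers; limma adjusted p = 0.949, with the block 0.000732, with the block and no intensity trend 0.0562). Ndufa3, another small membrane subunit, had 2445 and 2139 in Tc9 and 1947 and 1864 in Tc1, again without overlap, with a log2 change of 0.26 ± 0.13 (SE; 0.33 and 0.20 within the numbers; limma adjusted p = 1.00, with the block 0.000112, with the block and no intensity trend 0.178). The lowest change among accessory subunits was that of Ndufb3, with 313 and 214 in Tc9 and 380 and 286 in Tc1 (log2 change -0.33 ± 0.24, SE; adjusted p = 1.00). Ndufb4 and Ndufb4b, which by name are close copies and whose probe sets may read each other's transcript, had log2 changes of -0.11 and -0.084.

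The assembly factors of complex I held the lowest and the highest change of the set, of which the highest, that of Ndufaf3, lay under the background level on every array. Among members above that level by their mean, the highest change was that of the accessory subunit Ndufb11. Assembly factors help to build the complex and do not remain in it. Of the 8, 6 had a lower and 2 a higher mean in Tc9, and the median log2 change was -0.23 (-0.25 and -0.23 within the numbers). On both numbers 5 were lower in Tc9, against 32.0% of all genes. Among the 5 assembly factors above the background level by their mean, 4 were lower and 1 higher, with a median of -0.14. The 1 higher, Ndufaf7, had a change of 0.00011. Of those lower, Ndufaf1 (-0.028) was under the background level on 3 arrays. None of the 8 passed limma. Ndufaf4, which is needed early in assembly, had 848 and 1090 in Tc9 and 1249 and 1355 in Tc1. Both Tc9 arrays lay below both Tc1 arrays, with a log2 change of -0.43 ± 0.16 (SE; -0.55 and -0.31 within the numbers; limma adjusted p = 0.778, with the block 5.53e-08, with the block and no intensity trend 0.0379).

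Ndufaf3, a partner of Ndufaf4 in early assembly, went the other way. It had 126 and 138 in Tc9 and 84.2 and 78.8 in Tc1, with a log2 change of 0.60 ± 0.23 (SE; 0.50 and 0.70 within the numbers; limma adjusted p = 0.810, with the block 0.00261, with the block and no intensity trend 0.00604). The groups did not overlap, but Ndufaf3 did not reach the background level on any of the 4 arrays, so the size of this difference could not be measured reliably. Ndufaf2, Ndufaf5 and Ndufaf6 had log2 changes of -0.40, -0.39 and -0.31, each with both Tc9 arrays below both Tc1 arrays, and Ndufaf2 and Ndufaf5 stayed under the background level on every array. Ndufaf7 had a log2 change of 0.00011. Ndufaf8 had 483 and 218 in Tc9 and 510 and 255 in Tc1, the widest gap between numbers of any member.

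Over all members, 10 had both Tc9 arrays above both Tc1 arrays and 15 had both below, against 14.0% and 15.1% of all genes. The assembly factors of complex I supplied 1 of those above and 4 of those below, and the accessory subunits of complex I supplied 4 above and 5 below.

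**Figure D3:**
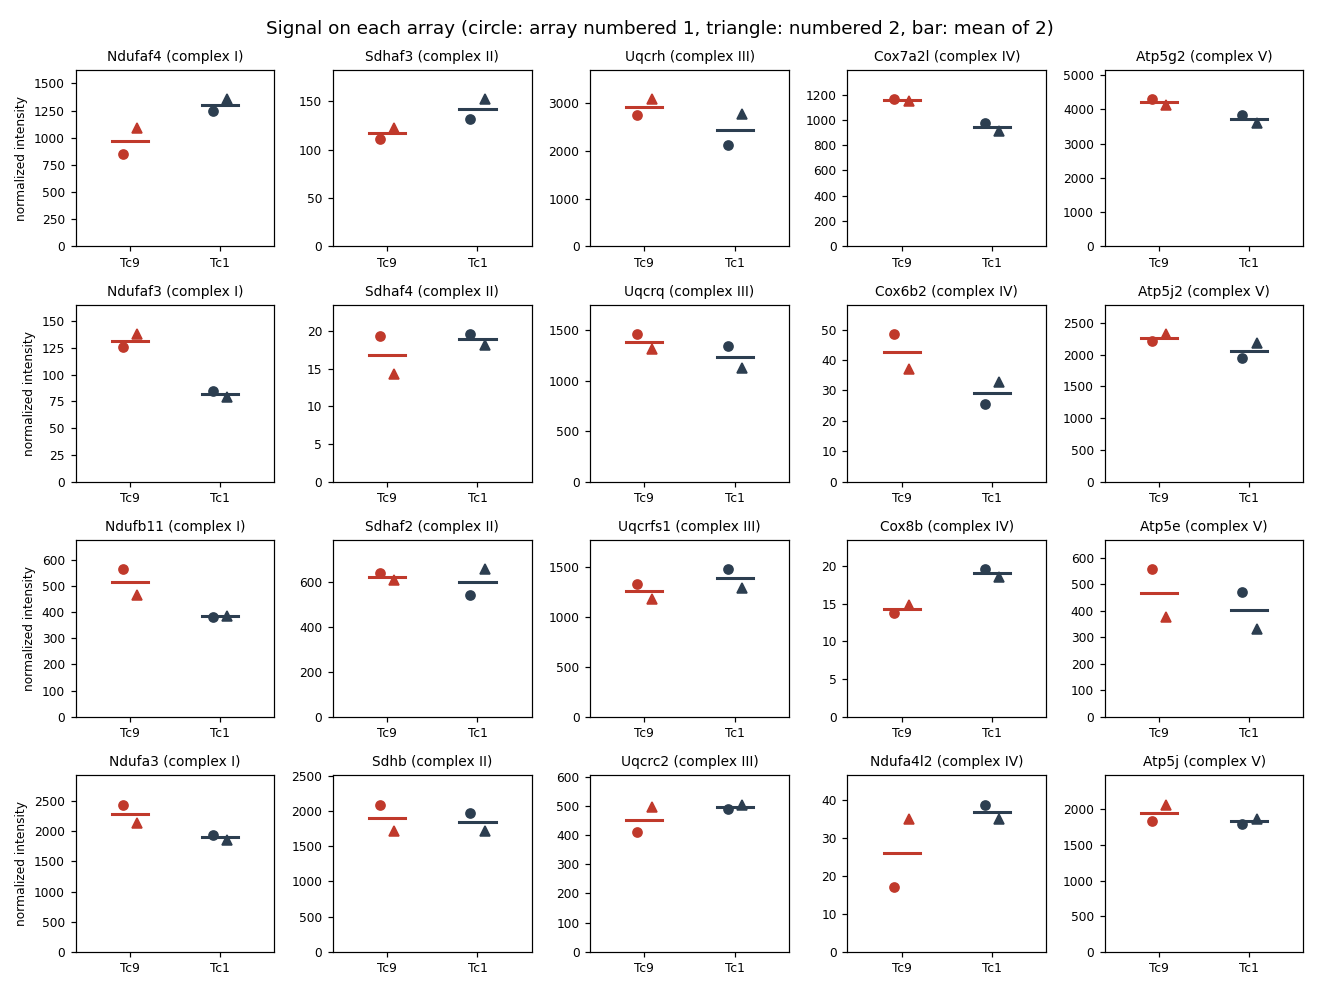
Normalized intensity (linear axis from 0, scaled for each gene) on each array for the 4 members with the smallest unadjusted p in each complex, with Tc9 left of Tc1, circles for arrays numbered 1, triangles for arrays numbered 2 and bars for the mean of 2. Ndufaf4, Ndufaf3, Ndufb11, Ndufa3, Cox7a2l and Atp5g2 show no overlap between cell types, and Sdhb and Uqcrq show overlap.

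Complex II belongs both to the respiratory chain and to the TCA cycle. Its 8 members had a median absolute log2 change of 0.053, the lowest of the 5 complexes. Sdha, Sdhb, Sdhc and Sdhd, its catalytic and membrane-anchoring subunits, had log2 changes of 0.073, 0.042, 0.0029 and -0.032. Sdhb, the iron-sulphur subunit, had 2090 and 1715 in Tc9 and 1964 and 1720 in Tc1, with overlapping groups. Sdhaf2, which attaches flavin to Sdha, had 640 and 608 in Tc9 and 543 and 656 in Tc1. The assembly factor Sdhaf3 had 111 and 123 in Tc9 and 132 and 152 in Tc1 (log2 change -0.25 ± 0.23, SE; limma adjusted p = 1.00). Sdhaf3 and Sdhaf4, at 19.3 and 14.2 in Tc9 and 19.6 and 18.2 in Tc1, were under the background level on every array.

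In complex III, Uqcrfs1, the Rieske iron-sulphur protein, had 1337 and 1180 in Tc9 and 1479 and 1297 in Tc1, with a log2 change of -0.14 within either number and an interval of -0.47 to 0.19. The core proteins Uqcrc1 and Uqcrc2 had log2 changes of 0.059 and -0.13, and Uqcrc2 measured 410 and 496 in Tc9 and 488 and 505 in Tc1. Uqcrh, the hinge protein that meets cytochrome c1, had 2754 and 3092 in Tc9 and 2124 and 2777 in Tc1. It was higher in Tc9 within each number, by 0.37 and 0.15, but the groups overlapped (log2 change 0.26 ± 0.16, SE; limma adjusted p = 1.00, with the block 1.85e-05, with the block and no intensity trend 0.193). Uqcrq, a small subunit, had 1461 and 1317 in Tc9 and 1341 and 1123 in Tc1. The median log2 change of the 8 complex III members was -0.0019.

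For complex IV, the widely expressed subunits were above the background level on every array, and none passed limma. Cox4i1, Cox5a and Cox5b, nuclear-encoded subunits that bind the catalytic core, had log2 changes of 0.15, -0.034 and 0.023. The 11 subunits of this kind, Ndufa4 among them, which is named for complex I but was later assigned to complex IV, ranged from -0.17 to 0.15 with a median of 0.0024. Cox7a2l, which links complexes III and IV in supercomplexes, had 1164 and 1146 in Tc9 and 975 and 916 in Tc1. Both Tc9 arrays were above both Tc1 arrays (log2 change 0.29 ± 0.13, SE; 0.25 and 0.32 within the numbers; limma adjusted p = 1.00, with the block 0.00133). It was not called in the blocked fit without the intensity trend.

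The 8 alternative isoforms and copies of complex IV subunits were not above background in either cell type. Cox6a2, Cox7a1 and Cox8b are known from heart and skeletal muscle, Cox4i2 from lung, Cox6b2, Cox7b2 and Cox8c from testis, and Ndufa4l2 is a copy of Ndufa4 known from hypoxic cells. Their deposited intensities were between 0.044 and 0.75 times the background level of the same array, so none was above it and their changes could not be measured reliably. Cox8b reached 0.0995 and 0.0860 times that level in Tc9 and 0.125 and 0.0974 in Tc1. Its widely expressed counterpart Cox8a reached 28.9 and 25.1 times the level in Tc9 and 28.5 and 24.2 in Tc1. The same division held for Cox4i1, Cox6a1, Cox6b1, Cox7a2, Cox7b and Ndufa4, which were at least 3.24 times the background level on every array. The log2 changes were 0.15 for Cox4i1, 0.0024 for Cox6a1, 0.15 for Cox6b1, -0.17 for Cox7a2, -0.092 for Cox7b, -0.050 for Cox8a and 0.029 for Ndufa4.

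Among the isoforms under the background level, Cox6b2 had 48.5 and 36.9 in Tc9 and 25.4 and 32.6 in Tc1 after normalization, Cox8b had 13.8 and 14.9 in Tc9 and 19.6 and 18.5 in Tc1, and Ndufa4l2 had 17.03 and 35.0 in Tc9 and 38.7 and 35.1 in Tc1. These were the complex IV genes with the smallest unadjusted p beside Cox7a2l, and all had an adjusted p of 1.00 by limma. Cox4i2, Cox6a2, Cox7a1, Cox7b2 and Cox8c had log2 changes of 0.074, 0.089, -0.41, -0.017 and -0.073.

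**Figure D4:**
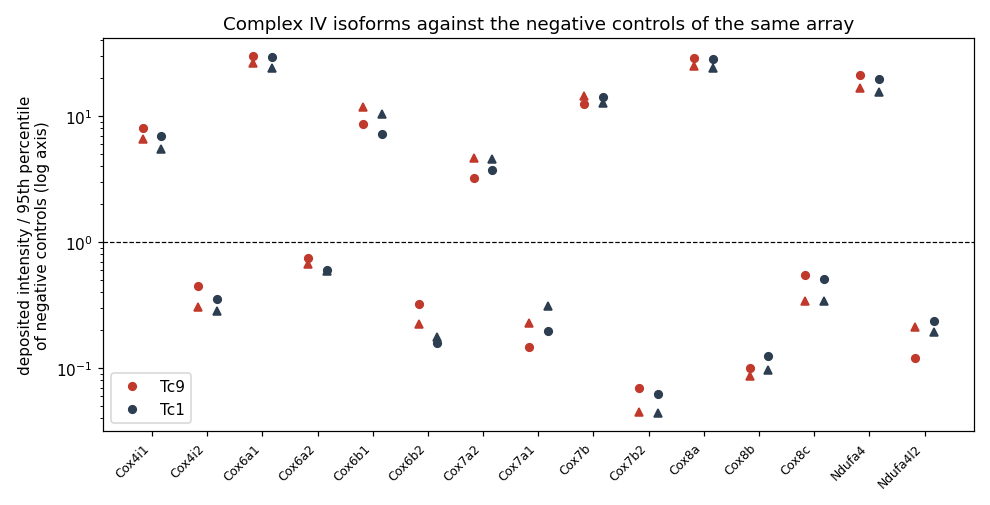
Deposited intensity divided by the background level, the 95th percentile of negative control probes on that array (log axis), for complex IV subunits and their isoforms, with Tc9 left of Tc1 for each gene, circles for arrays numbered 1 and triangles for arrays numbered 2. The dashed line is at 1; the alternative isoforms lie between 0.044 and 0.75, and Cox8a between 24.2 and 28.9.

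The promoters of Cox8a and Cox8b are shown because these isoforms lie on either side of the background level in both cell types. The sequences are the 250 bases before the RefSeq start (GRCm38.p6, 5′ to 3′ on the gene's strand), with CG dinucleotides in capitals. The Cox8a stretch is chr19:7217617-7217866, minus strand, and the Cox8b stretch is chr7:140900447-140900696, minus strand.
Cox8a: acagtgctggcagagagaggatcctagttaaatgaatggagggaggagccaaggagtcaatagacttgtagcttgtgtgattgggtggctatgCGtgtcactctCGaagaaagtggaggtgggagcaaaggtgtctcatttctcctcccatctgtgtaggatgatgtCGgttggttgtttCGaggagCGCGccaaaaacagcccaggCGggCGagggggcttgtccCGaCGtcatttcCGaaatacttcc
Cox8b: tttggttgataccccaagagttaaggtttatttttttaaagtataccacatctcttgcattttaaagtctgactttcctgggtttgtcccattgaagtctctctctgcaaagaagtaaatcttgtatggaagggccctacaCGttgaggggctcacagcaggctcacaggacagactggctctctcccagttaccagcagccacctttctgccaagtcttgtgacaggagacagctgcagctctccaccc
The Cox8a stretch holds 11 CG dinucleotides and the Cox8b stretch 1. RefSeq promoter windows of 300 bases, 50 of them after the start, were matched for 81 of the 97 members. Over those members the observed CG count was a median of 0.83 times that expected from base composition, against 0.59 over the 15691 genes of the array with a window. The 4 isoforms under the background level with a window, Cox6b2, Cox7a1, Cox7b2 and Cox8b, had 0.11 to 0.56. Low values did not follow the signal throughout: the 9 members with a window that were under the background level on every array had a median of 0.78, and Cox7b and Ndufb4b, above it on every array, had 0.37 and 0.40. These are descriptions of sequence and were not tested against the signals.

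In complex V, 14 of 17 members had a higher and 3 a lower mean in Tc9, against 9622 of 19505 genes with a higher mean. That count was 9 of 17 with median centring, without the Tc9 array numbered 1 or without the Tc1 array numbered 2, so it rests on those arrays and that scaling. The members had a median log2 change of 0.054 (0.070 and 0.061 within the numbers; all genes -0.0027) and a range of -0.086 to 0.20, all inside 2-fold by their intervals. Atp5a1, Atp5b and Atp5c1, the alpha, beta and gamma subunits of the catalytic head, had log2 changes of 0.033, -0.0081 and 0.085. Atp5b, which bears the catalytic sites, had 6401 and 5621 in Tc9 and 6606 and 5507 in Tc1, with an interval of -0.32 to 0.30. Atp5g2, a gene for the rotating c ring, had 4294 and 4133 in Tc9 and 3818 and 3589 in Tc1, without overlap (log2 change 0.19 ± 0.11, SE; 0.17 and 0.20 within the numbers; limma adjusted p = 1.00, with the block 0.00106, with the block and no intensity trend 0.353). The other c ring genes, Atp5g1 and Atp5g3, encode the same mature protein and had changes of 0.041 and 0.029.

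Atp5j2, a membrane subunit, had 2210 and 2320 in Tc9 and 1943 and 2185 in Tc1, without overlap. Atp5j, of the peripheral stalk, had 1832 and 2070 in Tc9 and 1796 and 1870 in Tc1, with overlap. Atp5e, the epsilon subunit, had 557 and 377 in Tc9 and 472 and 333 in Tc1, higher in Tc9 within each number but with overlapping groups. Atpif1, which inhibits the synthase and carries a name outside the rule, had 789 and 873 in Tc9 and 741 and 879 in Tc1 (log2 change 0.039 ± 0.15, SE). Of Atp5j2, Atp5j, Atp5e and Atpif1, none passed limma (adjusted p = 1.00 for each).

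Motifs of known regulators of respiratory genes were counted in the 300-base windows on both strands, taking a gene as a match if any of its RefSeq starts held the letters. CGCATGCG, the centre of the NRF1 motif, was found in 11 of 81 members (13.6%), against 2.87% of the genes of the array with a window. CCGGAAG, the ETS motif that GABP binds, was found in 22 members (27.2%), against 13.2%. AAGATGGCG, the core of the YY1 motif, was found in 8 members (9.88%), against 2.23%. Each of these motifs contains CG, and the members' windows held a median of 20 CG dinucleotides, against 14 over the genes with a window. Whether the motif shares differ beyond that was not tested. Members with the NRF1 letters included Ndufaf4 and Atp5g2, of which the first was lower and the other higher in Tc9. Their promoters are printed to show the motif (capitals) in 2 members with opposite differences, at chr4:24897833-24898082, plus strand, for Ndufaf4 and chr15:102671048-102671297, minus strand, for Atp5g2.
Ndufaf4: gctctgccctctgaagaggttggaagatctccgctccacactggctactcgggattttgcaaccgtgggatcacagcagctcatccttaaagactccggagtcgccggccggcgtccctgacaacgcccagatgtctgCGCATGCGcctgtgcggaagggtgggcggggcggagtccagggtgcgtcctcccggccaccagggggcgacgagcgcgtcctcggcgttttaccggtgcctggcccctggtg
Atp5g2: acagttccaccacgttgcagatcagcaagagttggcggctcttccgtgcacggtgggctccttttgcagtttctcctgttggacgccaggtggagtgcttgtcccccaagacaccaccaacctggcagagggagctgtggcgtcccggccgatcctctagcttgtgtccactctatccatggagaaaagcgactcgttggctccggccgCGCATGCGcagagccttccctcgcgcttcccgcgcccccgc
The motif begins 112 bases before the start of Ndufaf4 and 41 bases before that of Atp5g2. A match of letters is not evidence of binding.

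Genes that act beside the complexes were counted from lists made for this comparison, and 0 of 92 measured genes in 5 lists passed limma. At an unadjusted p under 0.05 there were 2, both higher in Tc9, against 2.94% of all genes. With the block 14 of the 92 passed, 3 higher and 11 lower, against 13.7% of all genes (6.34% higher and 7.37% lower). Among the 7154 genes above the background level by their mean, 988 were higher and 1139 lower with the block. Of the 92, 14 were under that level on every array. The lists were made with earlier results of these data known. The transcription and regulator list (20 of 21 measured) had a median log2 change of -0.0048. Nrf1, a transcription factor for nuclear genes of respiration, had 803 and 623 in Tc9 and 563 and 573 in Tc1 (log2 change 0.31 ± 0.17, SE; 0.50 and 0.12 within the numbers; limma adjusted p = 1.00, with the block 0.00450, with the block and no intensity trend 0.166). Gabpa, the DNA-binding chain of GABP, had a change of 0.085. Tfam, which packages and transcribes mitochondrial DNA, had 125 and 203 in Tc9 and 172 and 202 in Tc1, lower in Tc9 on the arrays numbered 1 and level on those numbered 2. Both Tfam values on the arrays numbered 1 were under the background level, so that difference could not be measured reliably. Of the coactivators, Ppargc1b had a change of 0.041, and Ppargc1a stayed under the background level on every array. Esrra and the 13 mitochondrially encoded subunits are not analysed here.

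The list of carriers and further subunits (7 of 9 measured) had a lower mean in Tc9 for all 7, with a median of -0.11, and 0 passed limma. One of them, Cyct, whose change is that median, was under the background level on every array, and Etfa was higher in Tc9 on the arrays numbered 2 (0.041). When 1 array was left out, 4 or 5 of the 7 were lower. Cycs, encoding cytochrome c, had 2638 and 2527 in Tc9 and 3042 and 2925 in Tc1, without overlap (log2 change -0.21 ± 0.11, SE; -0.20 and -0.21 within the numbers; limma adjusted p = 1.00, with the block 0.00118, with the block and no intensity trend 0.290). Cyc1, the cytochrome c1 of complex III, had a change of -0.13, which was 0.018 without the Tc9 array numbered 2 and 0.0095 without the Tc1 array numbered 1. Assembly factors outside the name rule (36 of 39 measured) had a median of -0.030, with a range of -0.77 to 0.49. TCA cycle genes (17 of 18 measured) had a median of -0.049, and Cs, citrate synthase, had 2729 and 2698 in Tc9 and 2788 and 2717 in Tc1. Coenzyme Q synthesis (12 of 13 measured), which supplies the carrier between complexes I or II and III, had a median of 0.026.

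**Figure D5:**
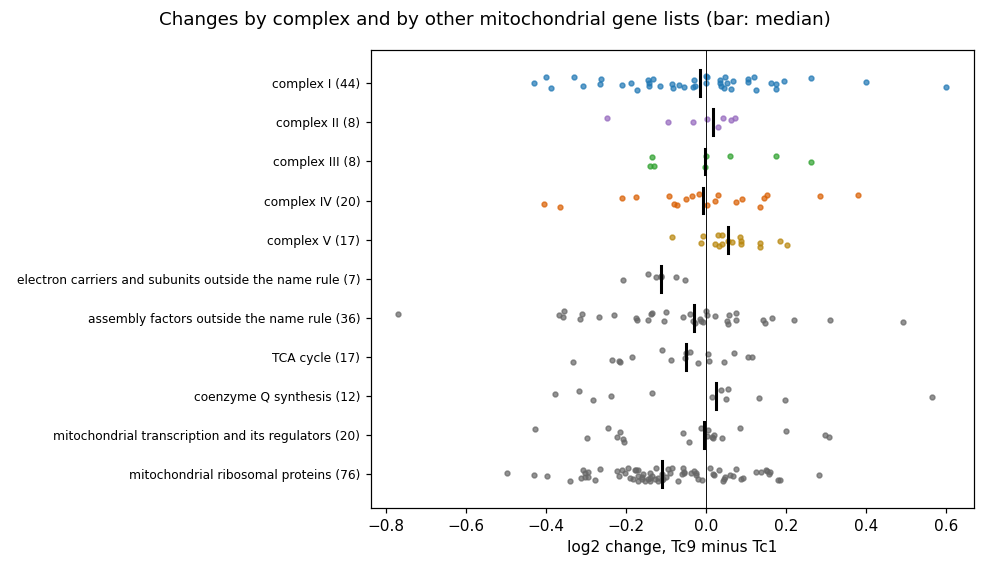
Log2 change, Tc9 minus Tc1, of each measured gene (points, spread vertically for visibility), by complex and by list of other mitochondrial genes, with the number of genes in brackets and a bar at the median. Complex medians lie between -0.014 and 0.054 and that of mitochondrial ribosomal proteins at -0.11.

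The labelled cell type was checked with marker genes. All 7 measured markers listed for CD8 T cells were above the background level on all 4 arrays. They were Cd8a and Cd8b1 and the general T cell genes Cd2, Cd3d, Cd3e, Cd3g and Thy1. Of the Tc9 markers, Irf4 was above the background level and Il9 below it on every array, with log2 changes of 0.18 and 1.40. Neither passed limma (Il9 adjusted p = 0.0679), and the size of the Il9 change could not be measured reliably. The Tc1 markers Ifng and Tbx21 were lower in Tc9 (-0.98 and -1.83, limma adjusted p = 0.0251 and 0.0167). Tbx21 was under the background level on the Tc9 array numbered 2, so the size of its change is uncertain. Of 29 measured markers of 7 other cell types 28 were below that level on all 4 arrays, Cd79b being the exception, and their summed intensity was 1212 and 1249 in Tc9 and 1182 and 1273 in Tc1. Fewer cells with a transcript and less transcript per cell cannot be told apart in such bulk RNA. Nor does RNA level measure the amount or activity of the complexes.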

How the data were processed

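The authors deposited 1 intensity per probe set and array, on a linear scale read from the values. Per the labels' protocols, Trizol RNA was biotin-labelled by the Affymetrix protocol. How background was corrected and probes were summarized, and with which software, is not stated by the labels. Of 28846 probe sets 6640 were controls, among them 5222 negative controls. The other 22206 were quantile normalized, and 19572 had a gene symbol in the platform annotation, giving 19505 genes after the probe set with the highest mean was kept for each. Intensities plus 16 were log2 transformed and fitted with limma 3.58.1 in R 4.3.3 (functions lmFit and eBayes, intensity trend on; 2 residual and 5.09 prior degrees of freedom), Tc9 minus Tc1, all 4 arrays, 2-sided, adjusted over all genes. Printed intensities are normalized unless called deposited. The fit was checked on simulated data with known changes of at least 2-fold. That check does not cover changes as small as those of the members. The number of arrays limits the precision.

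Groups came from the sample titles. Members, lists and tests were chosen with earlier results of these data known. Values are given for members past the threshold, for the 4 members of smallest unadjusted p in each complex, and for catalytic subunits, isoforms and regulators fixed by function; others named were picked after their values were seen. Alternatives were other normalizations, pseudocounts, filters and probe set rules, no intensity trend, the replicate number as a block, and leaving out each array. Promoter sequences are from RefSeq.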

Additional observations from a re-analysis of the deposited data

How the results depend on the processing

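The count of 0 members past the limma threshold held with the values as deposited, median centring, a pseudocount of 1 or 64, no intensity trend, both filters, the mean of probe sets, and without any 1 of the arrays. With the replicate block it was 13, and with the replicate block and no intensity trend, an alternative chosen after seeing the data, 4. The numbers 1 and 2 are not stated to mark pairs. After normalization, deviations from the group means correlated across genes with r = 0.729 between the Tc9 and Tc1 arrays of the same number, and genes are not independent replicates. Over all genes, 110 passed, against 16 as deposited, 52 with median centring, 56 without the trend, 2674 with the block, 1426 with the block and no trend, and 186 to 274 without 1 array. The members' median log2 change of 0.023 became 0.0035 as deposited and -0.015 with median centring, and without 1 array it lay between -0.058 and 0.093. It was negative without the Tc9 array numbered 1 (-0.057) or the Tc1 array numbered 2 (-0.058), and positive without the Tc9 array numbered 2 (0.093) or the Tc1 array numbered 1 (0.071). The share of higher calls moved from 75 of 110 to 13 of 16 as deposited and 30 of 52 with median centring. The named genes gained 14 calls over all alternatives, all of them with the block. None of them was called to begin with, so no call could be lost. Signs of uncalled changes are not stable: 4 members changed sign as deposited, 14 with median centring, and 20 to 31 without 1 array. Signals below the negative controls, as for 13 members on all 4 arrays, limit what could be seen.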

Other observations

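The mitochondrial ribosome translates the subunits encoded in mitochondrial DNA. Of 76 genes for its proteins, named Mrpl or Mrps, 55 had a lower and 21 a higher mean, 45 were lower in Tc9 on both array numbers and 14 higher on both, and the median log2 change was -0.11 (-0.087 and -0.12 within the numbers). None passed limma, 1 was lower and 0 higher at an unadjusted p under 0.05, and with the block 11 were lower and 1 higher. The shares of all genes were 2.34% lower and 2.94% higher at that unadjusted p, and 7.37% lower and 6.34% higher with the block. Of the 76, 72 were above the background level on every array. Among the 7154 genes above that level by their mean, 1139 were lower and 988 higher with the block. On both array numbers 2883 of those 7154 genes were lower and 2480 higher. Without the Tc9 array numbered 2 or the Tc1 array numbered 1, 40 of the 76 were lower, with a median of -0.013 or -0.012. Mrpl15, the 1 gene lower at an unadjusted p under 0.05, had 484 and 544 in Tc9 and 689 and 705 in Tc1 (limma adjusted p = 0.689). For the 97 oxidative phosphorylation genes the numbers on both array numbers were 31 lower and 33 higher, and for all genes the shares were 32.0% lower and 30.1% higher. A difference between the ribosomal proteins and the oxidative phosphorylation genes was not tested.

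The following genes outside the name rule were picked after their values were seen. Bcs1l, which inserts the Rieske protein into complex III, had 395 and 425 in Tc9 and 303 and 271 in Tc1 (log2 change 0.49 ± 0.17, SE; limma adjusted p = 0.685, with the block 9.64e-05). Tmem126a, a mitochondrial membrane protein with a role in complex I assembly, had 213 and 456 in Tc9 and 453 and 652 in Tc1, lower in Tc9 within each number by log2 changes of -1.03 and -0.50, with overlapping groups (adjusted p = 1.00). Coq8b, of coenzyme Q synthesis, had 280 and 330 in Tc9 and 169 and 237 in Tc1 (0.56 ± 0.23; adjusted p = 0.856), and Coq5, a methyltransferase of the same pathway, had 1144 and 1522 in Tc9 and 1633 and 1808 in Tc1 (-0.38 ± 0.17; adjusted p = 0.982). Coq8b was under the background level on the Tc1 array numbered 1, so the size of its change is uncertain.

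The 97 members lie on 19 chromosomes, 3 of them on X: Ndufa1, Ndufb11 and Cox7b.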
